A study of Mus musculus with 4 samples.

Results

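The genes that make, break down and respond to cyclic AMP and cyclic GMP were examined in 4 cultures of mouse cortical astrocytes. Members were the protein-coding genes whose symbols name an adenylyl cyclase (Adcy), a guanylyl cyclase (Gucy), a cyclic nucleotide phosphodiesterase (Pde with a number and a letter from a to d), a catalytic or regulatory subunit of cAMP-dependent protein kinase (PKA) or an A-kinase anchoring protein (Akap), with the exchange factors Rapgef3 and Rapgef4 added. The rule found 63 of the 21843 protein-coding genes in a table of 45703 genes. The single group consisted of glial cells of the frontal cortex of wild-type CD-1 mice, an outbred strain, taken at postnatal day 4. They were grown with serum, B27 and 10 ng/ml EGF and replated on day 6 in vitro, 200000 cells to a dish. After 3 more days they spent 1 h in serum-free Ham's medium and were lysed, so all 4 cultures share the EGF, the serum and its withdrawal. No sorting step, no number of animals per culture and no statement of separate preparations is given, so p-values rest on the spread of the 4 libraries alone, which may be technical. With 1 group there was no treatment to compare. Genes were therefore compared with each other inside the cultures, and the cultures with each other.

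Cyclic AMP is made from ATP by adenylyl cyclases, most of which sit in the plasma membrane and are driven or restrained by the alpha subunits of G proteins, and cyclic GMP is made by soluble guanylyl cyclases that sense nitric oxide and by receptor guanylyl cyclases that sense peptides. Phosphodiesterases hydrolyse one or both of these messengers. Cyclic AMP acts through PKA, whose regulatory subunits hold the catalytic subunits inactive until they bind it and are tied to places in the cell by anchoring proteins, and through the Epac proteins, which switch on the small GTPase Rap. In astrocytes, cyclic AMP is raised by noradrenaline and adenosine and is known for driving glycogen breakdown, process growth and the expression of mature astrocyte genes.

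The libraries held 41084351, 40097076, 37300485 and 42369109 counts in cultures 1 to 4, and 1 count was worth 0.0236 to 0.0268 counts per 1000000 counts of the library (CPM). All 10 astrocyte markers reached 1 CPM in each culture, the level at which a gene is called expressed here, and their summed level was 8009 CPM in culture 4 and 8842 to 9022 CPM in cultures 1 to 3. Genes listed as markers of other cells were detected too. Their summed levels were 2852 to 3106 CPM for 6 mural genes (4 expressed) and 1548 to 1701 CPM for 8 genes of the oligodendrocyte lineage (6 expressed). They were 253 to 278 CPM for 8 neuronal genes (5 expressed) and 199.7 to 220.3 CPM for 4 ependymal genes (2 expressed). Most of each sum came from few genes. These were Acta2 and Tagln (means of 1929 and 1019 CPM), Olig1 and Olig2 (1310 and 241 CPM), Map2 (214 CPM) and Foxj1 (189 CPM). Other genes of these lists were far lower, with means of 0.06 CPM for Kcnj8, 0.09 for Abcc9, 0.06 for Sox10, 0.07 for Rbfox3 and 0.17 for Ccdc153. Culture 4 stood apart from cultures 1 to 3. Its 6 fibroblast or meningeal markers (4 expressed) summed to 511.5 CPM, against 1334 to 1419.5 CPM in the others. The 8 microglial markers (7 expressed) summed to 68.3 CPM in culture 4, against 104 to 114 CPM, and the 6 endothelial markers (2 expressed) to 7.62 CPM, against 13.5 to 14.5 CPM. The 6 proliferation genes, all expressed, summed to 1631 CPM in culture 4, against 1241 to 1260 CPM in the others. Of the expressed neuronal genes, Tubb3 was lower in culture 4, at 7.53 CPM against 18.9 to 20.7 CPM. Syt1 was lower too, at 9.75 CPM against 11.9 to 13.3 CPM. Gad2 was higher, at 3.46 CPM against 1.61 to 2.07 CPM, and Map2 and Gad1 lay within the range of the others. Among the expressed mural genes Pdgfrb had 20.9 CPM in culture 4, against 30.4 to 31.4 CPM. Rgs5 and Tagln were also lower, and Acta2 lay within the range of the others. No marker was at 0 in all 4 cultures, and Mog, Cldn5 and Tmem212 had 3 counts or fewer in all. In a bulk library, fewer cells of a type and less RNA per cell cannot be told apart.

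Of the 63 members 48 were expressed, or 76.2%, against 58.1% of all protein-coding genes. The expressed members averaged between 3.66 and 1259.7 CPM over the cultures. Their median was 25.5 CPM, beside 32.0 CPM for all expressed protein-coding genes, and 5 of them exceeded 100 CPM, namely Akap12, Prkar1a, Prkaca, Prkacb and Adcy1. Every step of the cyclic AMP route was represented, with 8 of 9 transmembrane adenylyl cyclases, 7 of 8 cAMP-specific phosphodiesterases, both PKA catalytic subunits, all 4 regulatory subunits, 11 of 14 anchoring proteins and both Epac factors expressed. On the cyclic GMP side 3 of 4 soluble guanylyl cyclase subunits and 2 of 5 cGMP-specific phosphodiesterases were expressed, and none of the 5 receptor guanylyl cyclases named Gucy. All 8 phosphodiesterases that hydrolyse both messengers were expressed. The symbol Akap2 had been listed among the anchoring proteins but was not among the genes the rule found.

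**Figure D1:**
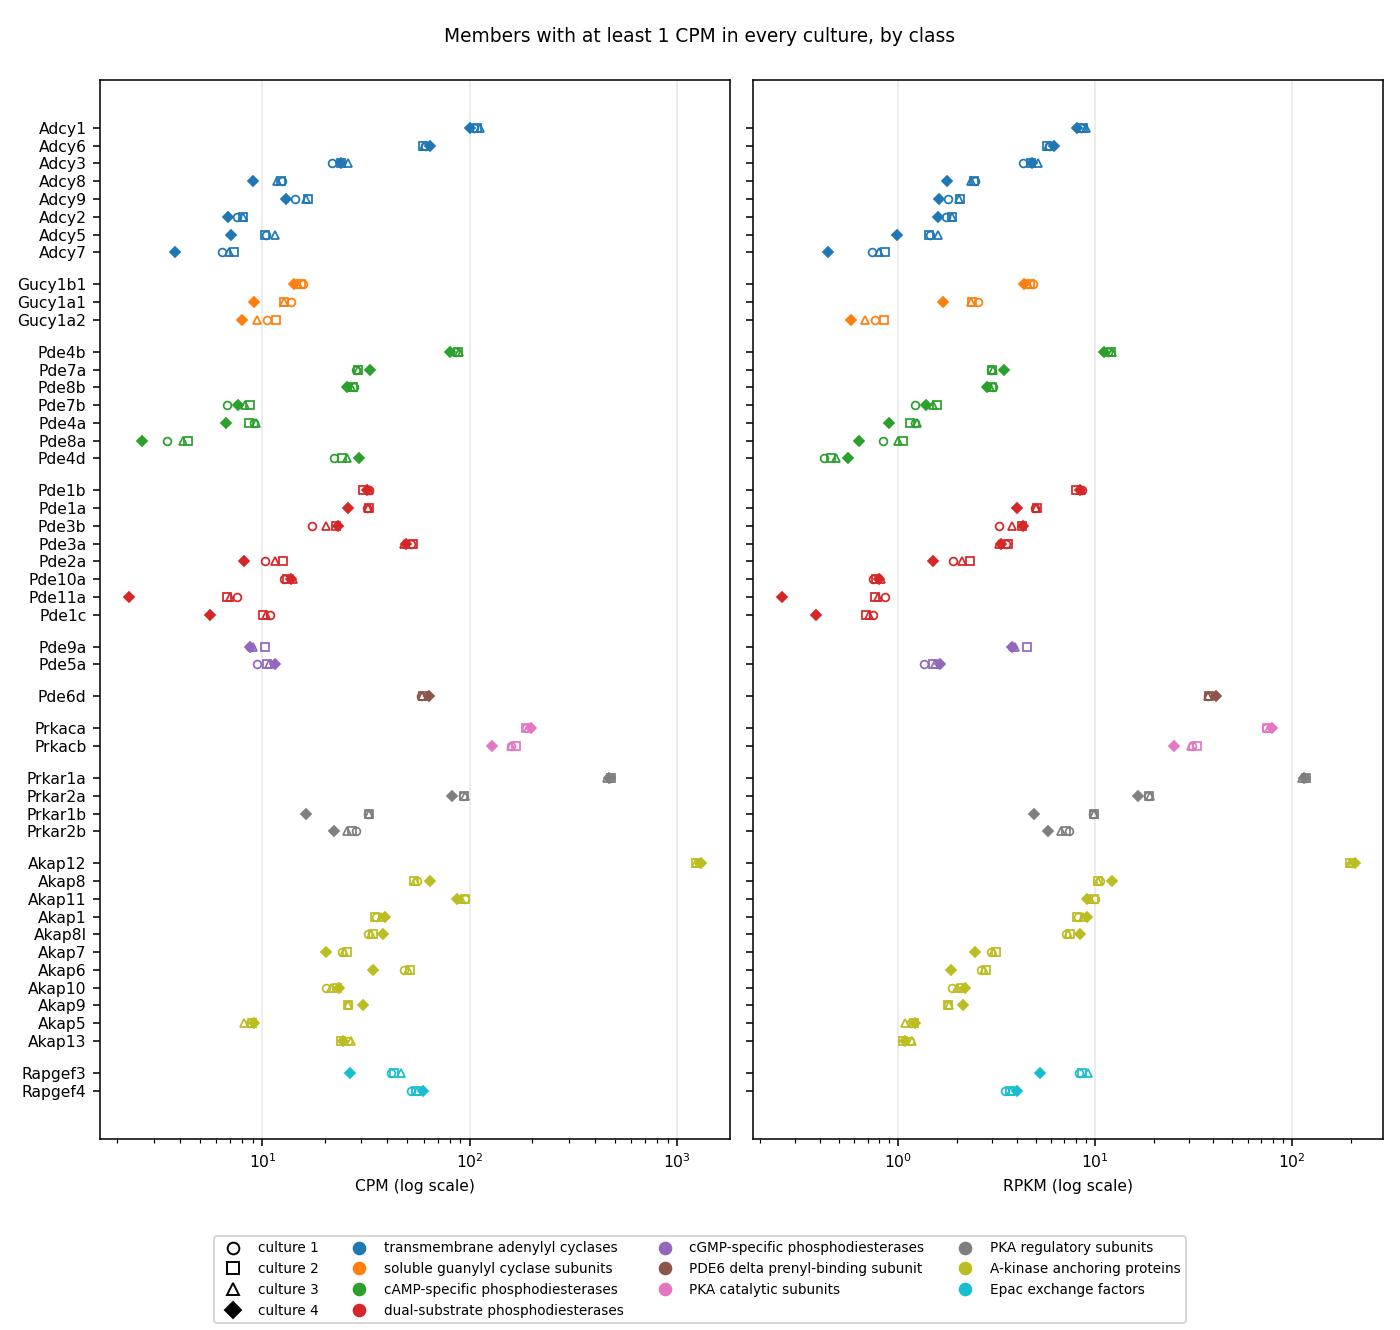
Level of each expressed member in each culture on log axes, in CPM (left) and in RPKM, the CPM per kilobase of combined exon length (right), coloured by class and ordered within a class by RPKM, with cultures 1 to 3 as open symbols and culture 4 as a filled diamond. Akap12 and Prkar1a lie farthest to the right, and the diamond of Pde11a, at 2.27 CPM, lies farthest to the left.

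Genes were compared within the cultures per kilobase of exon, as RPKM, with a quasi-likelihood test in edgeR on pairs of genes, adjusted by the Benjamini-Hochberg method over all 31270 pairs of the whole table. Of the 201 pairs within a class of members with at least 1 expressed gene 191 differed at an adjusted p under 0.05, or 95.0%, near the 95.6% of all pairs in the table, so that a difference as such says little about a pair. Some of these pairs set an expressed gene against one with few or no counts, so the filter itself fixed their outcome. With both genes expressed 134 of 144 member pairs differed, or 93.1%, beside 19385 of 20583 pairs in the table. Pairs share genes and are not independent of each other. What the test adds is which gene stood highest, by how much, and which neighbours in the order were not told apart. In each of the 9 classes with more than 1 member and any expression, the top gene exceeded every other member in the test and in all 4 cultures. The same held for all 9 when only expressed members were compared. The deposited exon length covers every annotated exon, and for several pairs the size or direction of the ratio, or its call, changed when another length was used.

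Among the transmembrane adenylyl cyclases, Adcy1, a neuronal and glial enzyme stimulated by calcium and calmodulin, had the most transcripts per kilobase. Adcy1 (gene ID 432530, chr11:7063433-7178506, plus strand, GRCm38.p6) had 105, 108, 112 and 100.1 CPM in cultures 1 to 4, or 8.60 ± 0.39 RPKM (SD, n = 4). The second, Adcy6, which calcium inhibits, had 60.7, 59.4, 60.1 and 64.5 CPM, or 5.90 ± 0.22 RPKM. Both were nearly level over the cultures, and Adcy1 was the higher in each. Adcy1 stood 1.46-fold above Adcy6 per kilobase, a log2 ratio of 0.54 ± 0.05 (SE), with an adjusted p of 3.31e-05 in edgeR's quasi-likelihood test, and the ratio stayed between 0.51 and 0.60 when each culture was left out in turn. This order rests on the length. With the longest GENCODE transcript of each gene the log2 ratio was -0.23, and with the mean transcript length it was -1.39, and Adcy6 then led the class.

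Adcy3, best known from the cilia of olfactory neurons and other cells, came next with 21.7, 23.8, 25.8 and 24.0 CPM, or 4.75 ± 0.33 RPKM. Adcy8, another calcium-stimulated cyclase, had 2.26 ± 0.32 RPKM, Adcy9 1.88 ± 0.21 RPKM and Adcy2 1.78 ± 0.13 RPKM. Adcy9 and Adcy2 were not told apart, with a log2 ratio of 0.07 ± 0.08 (SE) and an adjusted p of 0.406 in edgeR's test. By every other length Adcy9 was the higher in that test, at 1.67-fold with the longest GENCODE transcripts, 1.78-fold with the mean lengths and 1.97-fold without a length term. The remaining pair had lower levels and moved more between cultures. Adcy5, the calcium-inhibited relative of Adcy6, had 10.4, 10.3, 11.4 and 7.08 CPM in cultures 1 to 4. Adcy7, a cyclase of blood and immune cells among others, had 6.35, 7.33, 6.89 and 3.78 CPM. Both were lowest in culture 4. Cyclases described as stimulated by calcium and calmodulin (Adcy1, Adcy3, Adcy8) made up 57.1% ± 0.41 of the summed RPKM of the class, the calcium-inhibited Adcy5 and Adcy6 26.6% ± 1.2, and the other 4 members 16.2% ± 1.2 (SD, n = 4). With the longest GENCODE transcripts the stimulated group held 46.3% ± 0.53 and the inhibited group 35.5% ± 1.76, and with the mean lengths the order turned, at 33.7% ± 0.94 and 52.8% ± 2.22. At any 1 length the shares differed little between cultures, although the summed RPKM of the class ranged from 25.7 in culture 4 to 28.7 in culture 3.

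Of the guanylyl cyclases named Gucy, only subunits of the soluble enzyme, a nitric oxide sensor built from 1 alpha and 1 beta subunit, were expressed. The beta subunit Gucy1b1 (gene ID 54195, chr3:82032004-82074711, minus strand) had 15.7, 15.3, 14.8 and 14.1 CPM in cultures 1 to 4, or 4.61 ± 0.21 RPKM. Its alpha partner Gucy1a1, the neighbouring gene on the same chromosome and strand, had 13.8, 12.8, 12.6 and 9.11 CPM, or 2.25 ± 0.38 RPKM. Gucy1a2, the other alpha subunit, had 10.5, 11.7, 9.38 and 7.93 CPM, or 0.71 ± 0.12 RPKM. All 3 were lowest in culture 4, Gucy1a1 by the widest margin. Gucy1b1 stood 2.07-fold above Gucy1a1 per kilobase, a log2 ratio of 1.05 ± 0.10 (SE) with an adjusted p of 3.62e-05 in edgeR's test. Without a length term the log2 ratio was 0.32. The ratio of beta to summed alpha RPKM was 1.463, 1.464, 1.503 and 1.921 in cultures 1 to 4. It was higher in culture 4 than in the other 3, where it hardly varied. With the longest GENCODE transcripts the mean ratio turned to 0.68 ± 0.09, with the mean lengths to 0.59 ± 0.08 and without a length term to 0.70 ± 0.09 (SD, n = 4). By either GENCODE length Gucy1b1 still had the highest level but no longer exceeded every other subunit in the test.

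The phosphodiesterases summed to 51.88 ± 2.002 RPKM without Pde6d, which binds prenylated proteins and hydrolyses nothing. Of this sum the cAMP-specific enzymes held 42.04% ± 0.40, the dual-substrate enzymes 47.3% ± 0.54 and the cGMP-specific enzymes 10.7% ± 0.50 (SD, n = 4). By family, the calcium- and calmodulin-stimulated Pde1 genes held 26.6% ± 1.06, the Pde4 genes, targets of rolipram, 25.9% ± 0.49, the Pde3 genes, which cyclic GMP inhibits, 14.2% ± 1.10, and the cAMP-specific Pde7 and Pde8 genes 8.76% ± 0.73 and 7.39% ± 0.26. The division between the 3 substrate classes varied by less than 2 percentage points from culture to culture but moved with the length. With the longest GENCODE transcripts the cAMP-specific enzymes held 53.1% ± 1.12, the dual-substrate enzymes 39.5% ± 1.24 and the cGMP-specific enzymes 7.38% ± 0.37, so the cAMP-specific rather than the dual-substrate group was the largest, and the Pde4 family held 35.3% ± 0.75. The Pde3 share was 9.30% ± 0.63 with those transcripts, 5.85% ± 0.40 with the mean lengths and 18.8% ± 0.97 without a length term. The cAMP-specific group was also larger than the dual-substrate group with the mean lengths, at 58.9% ± 1.38 against 35.3% ± 1.47. Without a length term they held 49.3% ± 1.10 and 45.5% ± 1.30.

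Pde4b (gene ID 18578, chr4:102087332-102607275, plus strand) led the cAMP-specific enzymes with 84.8, 87.5, 88.7 and 80.3 CPM in cultures 1 to 4, or 11.8 ± 0.52 RPKM, and held 54.1% ± 0.66 of their summed RPKM. Its share was 47.7% ± 1.41 with the longest GENCODE transcripts, 49.3% ± 1.62 with the mean lengths and 45.6% ± 1.52 without a length term. Pde7a had 28.3, 28.8, 28.9 and 33.1 CPM, or 3.12 ± 0.24 RPKM, and Pde8b 27.6, 27.2, 26.8 and 25.7 CPM, or 2.95 ± 0.09 RPKM. Culture 4 was the highest for Pde7a and the lowest for Pde8b and Pde4b. Pde4b stood 3.79-fold above Pde7a per kilobase, a log2 ratio of 1.92 ± 0.07 (SE) with an adjusted p of 1.57e-07 in edgeR's test, in the same direction under every alternative tried. Pde7a and Pde8b were not told apart, with an adjusted p of 0.339 in edgeR's test, and Pde8b was the higher by both GENCODE lengths, at log2 ratios of -0.44 and -0.42. The others of the class stood at 1.42 ± 0.15 RPKM for Pde7b, 1.13 ± 0.16 RPKM for Pde4a, 0.89 ± 0.19 RPKM for Pde8a and 0.48 ± 0.06 RPKM for Pde4d. Pde8a had 3.48, 4.39, 4.16 and 2.62 CPM in cultures 1 to 4, lowest in culture 4. Pde4d averaged 25.3 ± 3.07 CPM, and its low RPKM comes with a combined exon length of 52762 bases, against 4207 bases for its longest GENCODE transcript. Per kilobase of that transcript its level was 6.01 ± 0.73 CPM and its share of the class 14.5% ± 1.80, in place of 2.203% by the deposited length. A ribosomal protein pseudogene, Rps3a3, lies within Pde4d on the same strand, with 92.3 CPM in culture 4 and 28.2 to 29.0 CPM in the others, and 1 of the 4 Pde4d counts was not whole.

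**Figure D2:**
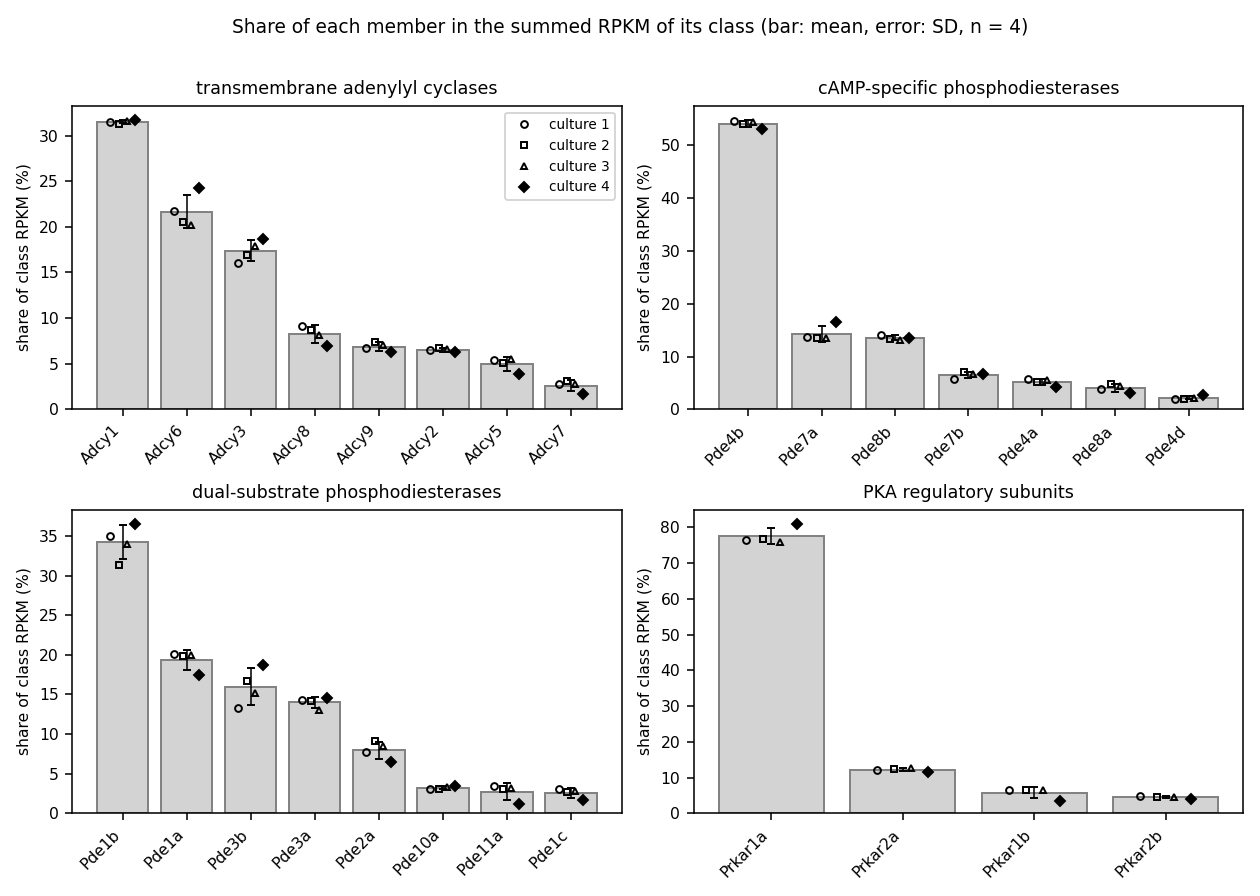
Share of each expressed member in the summed RPKM of its class, as a percent, for 4 classes, with grey bars for the mean, error bars for the SD (n = 4) and a symbol for each culture. Adcy1, Pde4b, Pde1b and Prkar1a had the highest bars, at 31.5%, 54.1%, 34.2% and 77.6%, and the culture 4 symbols lie off the others for Adcy6, Pde7a and Prkar1a.

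Pde1b (gene ID 18574, chr15:103503034-103530056, plus strand), a calcium- and calmodulin-stimulated enzyme, led the dual-substrate group per kilobase. It had 32.7, 30.4, 32.5 and 32.1 CPM in cultures 1 to 4, or 8.39 ± 0.28 RPKM, and 34.2% ± 2.15 of the group's RPKM. Its relative Pde1a had 31.9, 32.6, 32.4 and 25.9 CPM, or 4.76 ± 0.50 RPKM. In CPM the pair lay close together in cultures 1 to 3, and Pde1a was lower than Pde1b in culture 4. Per kilobase Pde1b stood 1.77-fold higher, a log2 ratio of 0.82 ± 0.08 (SE) with an adjusted p of 3.44e-05 in edgeR's test. The ratio was 0.06 without a length term and 0.09 with the mean GENCODE length, and neither passed the threshold.

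The cGMP-inhibited enzymes Pde3b, which carries insulin's effect on cyclic AMP in fat and liver, and Pde3a, known from heart and platelets, followed. Pde3b had 17.4, 22.6, 20.3 and 23.0 CPM in cultures 1 to 4, or 3.91 ± 0.49 RPKM, lowest in culture 1. Pde3a had 50.6 ± 2.36 CPM and 3.44 ± 0.16 RPKM. The pair was not told apart per kilobase, with an adjusted p of 0.0626 in edgeR's test, and the log2 ratio of Pde3b to Pde3a turned to -1.28 without a length term and to -0.38 with either GENCODE length. Without culture 1 it passed the threshold at 0.27. Pde2a, which cyclic GMP stimulates, had 10.2, 12.5, 11.4 and 8.14 CPM. Pde10a, the phosphodiesterase of striatal neurons, had 0.79 ± 0.03 RPKM and was steady over the cultures. The largest spread of any expressed member was that of Pde11a, with 7.55, 6.73, 6.97 and 2.27 CPM in cultures 1 to 4. Pde1c, the third calcium-stimulated gene, had 10.9, 10.1, 10.4 and 5.59 CPM. Both lay close together in cultures 1 to 3 and far lower in culture 4. Pde10a, Pde11a and Pde1c were not told apart per kilobase, with adjusted p values of 0.310, 0.101 and 0.975 for Pde10a against Pde11a, Pde10a against Pde1c and Pde11a against Pde1c in edgeR's test, and these 3 tests carry the wide spread from culture 4. By other lengths some of these calls changed. Pde10a was above Pde1c in edgeR's test at 1.68-fold with the longest GENCODE transcripts, 1.89-fold with the mean lengths and 1.49-fold without a length term, and above Pde11a at 1.92-fold with the mean lengths and 2.44-fold without one. Pde11a over Pde1c turned to a log2 ratio of -0.73 without a length term, and passed the threshold at 0.17 without culture 4.

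Pde9a (gene ID 18585, chr17:31386105-31476309, plus strand), a cGMP-specific enzyme of high affinity, had 8.71, 10.3, 9.01 and 8.69 CPM in cultures 1 to 4, or 4.01 ± 0.33 RPKM. Pde5a, the target of sildenafil, had 9.44, 10.5, 10.8 and 11.4 CPM, or 1.51 ± 0.12 RPKM. In CPM Pde5a was the higher in every culture, while per kilobase Pde9a stood 2.66-fold above it, a log2 ratio of 1.41 ± 0.10 (SE) with an adjusted p of 5.78e-06 in edgeR's test. Without a length term the log2 ratio was -0.20, which did not pass the threshold. The catalytic subunits of the photoreceptor enzyme were not expressed: Pde6b had 2 counts in all, and Pde6a and Pde6c had none. Pde6d, the prenyl-binding subunit, had 58.2, 59.2, 58.5 and 63.8 CPM, or 38.6 ± 1.69 RPKM. It overlaps Cops7b on the opposite strand, which had 20.6 to 23.5 CPM, and whether reads were counted by strand is not known from the labels.

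The PKA subunits Prkar1a, Prkaca, Prkacb and Prkar2a each had a higher mean RPKM than any cyclase or cyclic nucleotide-hydrolysing enzyme among the members by the deposited lengths. The catalytic subunit Prkaca (gene ID 18747, chr8:83972978-83996444, plus strand) had 186, 187, 191 and 198 CPM in cultures 1 to 4, or 76.1 ± 2.15 RPKM. The other catalytic subunit, Prkacb, had 158, 167, 157 and 128 CPM, or 30.03 ± 3.41 RPKM. Culture 4 was at once the highest for Prkaca and the lowest for Prkacb, so that the share of Prkaca in their summed RPKM, 71.7% ± 2.88 over the 4 cultures, was highest there. Prkaca stood 2.55-fold above Prkacb per kilobase, a log2 ratio of 1.35 ± 0.08 (SE) with an adjusted p of 2.46e-06 in edgeR's test. Without a length term the log2 ratio was 0.33. Both genes had some counts that were not whole.

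Of the regulatory subunits, Prkar1a (gene ID 19084, chr11:109649023-109669663, plus strand), the widely expressed type I subunit, had 476, 478, 458 and 469 CPM in cultures 1 to 4, or 115.9 ± 2.26 RPKM. Prkar2a, a type II subunit, had 92.7, 93.7, 94.4 and 82.2 CPM, or 18.3 ± 1.16 RPKM. Prkar1a was steady while Prkar2a was lower in culture 4 than in the other 3. Prkar1a stood 6.36-fold above Prkar2a per kilobase, a log2 ratio of 2.67 ± 0.05 (SE) with an adjusted p of 6.95e-09 in edgeR's test, and no alternative changed that order, with 3.56-fold by the mean GENCODE lengths. Prkar1b, a type I subunit known mainly from neurons, had 32.3, 32.5, 32.5 and 16.2 CPM. Its first 3 cultures were almost equal and culture 4 was lower by about a factor of 2.01. Prkar2b, the type II subunit of neurons and fat, had 28.1, 27.2, 25.6 and 22.2 CPM. Prkar1b and Prkar2b were not told apart per kilobase over all 4 cultures, with an adjusted p of 0.0663 in edgeR's test. Prkar1b was the higher in cultures 1 to 3, at log2 ratios of 0.41 to 0.55, and the lower in culture 4, at -0.24. Prkar1b was the higher in edgeR's test without culture 4, at a log2 ratio of 0.47, and over all 4 cultures with the longest GENCODE transcripts, at 1.37-fold, and with the mean lengths, at 2.36-fold.

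Type I subunits together held 83.3% ± 0.74 of the regulatory RPKM, and between 77.2% and 84.8% by the other lengths. Prkar1a alone held 77.6% ± 2.26. The holoenzyme contains regulatory and catalytic subunits in equal number, and the ratio of summed regulatory to summed catalytic RPKM was 1.45, 1.43, 1.38 and 1.37 in cultures 1 to 4. Its mean lay between 1.43 and 1.79 by the other lengths. These are transcript levels and say nothing on the amounts of protein. Prkar1b overlaps Dnaaf5 on the opposite strand, and Dnaaf5 had 33.2 CPM in culture 4 and 32.5 to 35.3 CPM in the others, so it did not share the low value of culture 4.

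The promoters of the 4 regulatory subunit genes are shown because Prkar1a stood far above its 3 paralogues in these cultures, and because the cAMP response element (CRE), the site of the factor CREB that PKA activates, can be looked for in them. They are the 120 bases before 1 annotated start of each gene in RefSeq (GRCm38.p6), the start being chosen for holding the full or else the shorter motif where any did, written 5′ to 3′ on the gene's own strand, from chr11:109650829-109650948 (plus) for Prkar1a, chr5:139150002-139150121 (minus) for Prkar1b, chr9:108692023-108692142 (plus) for Prkar2a and chr12:32061278-32061397 (minus) for Prkar2b. Capitals mark the full CRE, TGACGTCA, or its shorter form TGACG, searched on both strands; every full site also contains the shorter form.
Prkar1a: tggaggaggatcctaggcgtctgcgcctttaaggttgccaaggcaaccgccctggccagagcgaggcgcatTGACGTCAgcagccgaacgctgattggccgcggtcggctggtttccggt
Prkar1b: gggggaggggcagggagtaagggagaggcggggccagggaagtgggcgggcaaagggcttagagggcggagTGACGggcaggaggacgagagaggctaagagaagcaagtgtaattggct
Prkar2a: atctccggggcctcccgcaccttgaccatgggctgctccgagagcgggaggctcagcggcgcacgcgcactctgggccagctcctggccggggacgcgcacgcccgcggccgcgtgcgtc
Prkar2b: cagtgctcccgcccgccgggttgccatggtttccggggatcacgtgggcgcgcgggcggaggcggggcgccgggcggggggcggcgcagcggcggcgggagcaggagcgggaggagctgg

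The full CRE shown for Prkar1a and the shorter form shown for Prkar1b both began 49 bases before the start. RefSeq gives 6, 5, 1 and 2 starts in the table used for Prkar1a, Prkar1b, Prkar2a and Prkar2b. Over the whole windows, from 250 bases before to 50 after a start, Prkar1a held the full site in 2 of 6 and the shorter form in 3 of 6, Prkar1b the shorter form in 1 of 5, Prkar2a the shorter form in its 1 window, outside the stretch shown, and Prkar2b neither in 2. The motif therefore did not separate type I from type II genes. The table held 97 windows for 53 of the 63 members. The full CRE occurred in 2 of them, or 2.06%, beside 1.79% of all 32851 windows and 2.99% of the 13184 windows of expressed protein-coding genes. The shorter form occurred in 21.6% of the members' windows, beside 20.8% of all windows and 30.4% of windows of expressed protein-coding genes. Counted by gene, it occurred in 35.8% of the 53 members, beside 23.0% of all genes with a window and 35.4% of expressed protein-coding genes, and genes differ in their number of windows. A match is a run of letters, and no binding was measured.

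Both Epac factors were expressed. The size of their ratio varied between cultures, and its direction depended on the length. Rapgef3 (Epac1, gene ID 223864, chr15:97744770-97768419, minus strand) had 41.9, 43.3, 46.4 and 26.4 CPM in cultures 1 to 4, or 7.88 ± 1.79 RPKM. Rapgef4 (Epac2), known from brain and pancreatic islets, had 51.9, 54.7, 55.5 and 59.3 CPM, or 3.74 ± 0.20 RPKM. Culture 4 was the lowest for Rapgef3 and the highest for Rapgef4. Per kilobase Rapgef3 stood 2.07-fold above Rapgef4, a log2 ratio of 1.05 ± 0.15 (SE) with an adjusted p of 0.000423 in edgeR's test, with 1.22 to 1.30 in cultures 1 to 3 and 0.39 in culture 4. Without a length term the log2 ratio was -0.51, with the longest GENCODE transcript -0.45, and with the mean length 0.10. The deposited exon length of Rapgef4 is 14795 bases and its longest GENCODE transcript 4181 bases. An antisense RNA, Rapgef3os2, overlaps Rapgef3 and had 1.37 CPM in culture 4 and 2.203 to 2.306 CPM in the others.

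**Figure D3:**
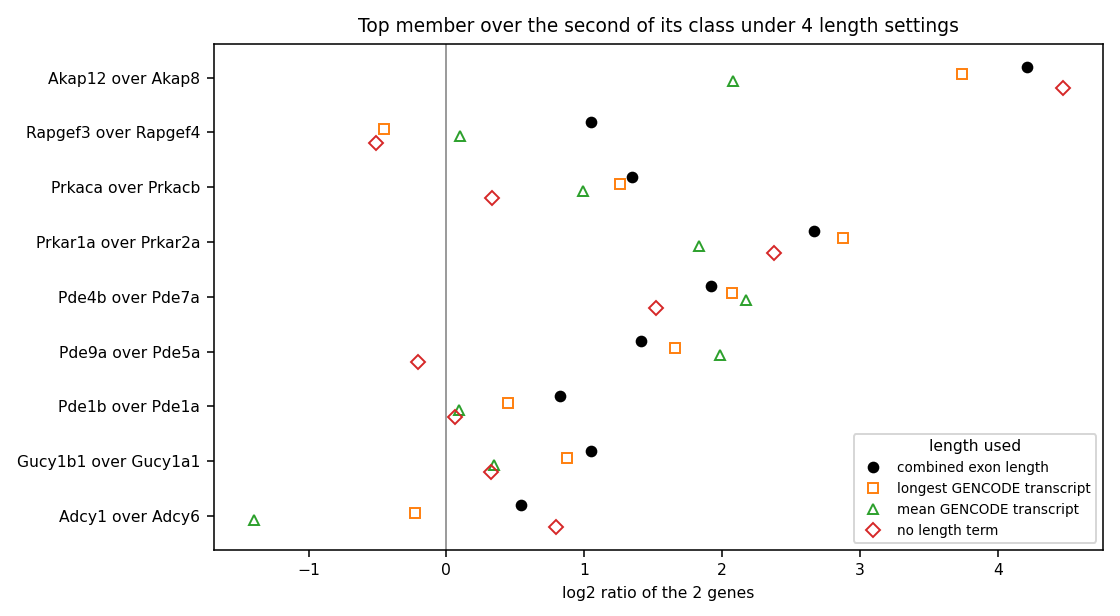
Log2 ratio of the top gene to the second gene of each of 9 classes, with the deposited combined exon length (filled circles), the longest GENCODE transcript (squares), the mean GENCODE transcript (triangles) and no length term (diamonds). Symbols left of 0 are cases in which the second gene was the higher, which occur for Rapgef3 over Rapgef4, Pde9a over Pde5a and Adcy1 over Adcy6.

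Akap12, also called gravin, a scaffold that binds PKA and protein kinase C at the plasma membrane, was the most abundant member of all. Akap12 (gene ID 83397, chr10:4266329-4359471, plus strand) had 1269.5, 1229.5, 1236 and 1304 CPM in cultures 1 to 4, or 201.6 ± 5.47 RPKM, and was the 52nd most abundant gene of the table in CPM. It held 80.6% ± 0.30 of the summed RPKM of the anchoring proteins. The second, Akap8, a nuclear anchor, had 55.3, 54.0, 54.3 and 64.1 CPM, or 10.9 ± 0.92 RPKM. Akap12 stood 18.6-fold above Akap8 per kilobase, a log2 ratio of 4.21 ± 0.05 (SE) with an adjusted p of 1.41e-09 in edgeR's test, and led under every alternative tried, with 4.22-fold by the mean GENCODE lengths. Akap11, which also binds glycogen synthase kinase, had 95.1, 94.8, 90.6 and 87.0 CPM, or 9.63 ± 0.41 RPKM. Akap1 of the outer mitochondrial membrane had 8.54 ± 0.47 RPKM, and Akap8l, a nuclear relative of Akap8, had 7.57 ± 0.56 RPKM.

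The other 6 expressed anchoring proteins were lower. Akap7, a small anchor of ion channels, had 2.91 ± 0.29 RPKM. Akap6, the anchor of the nuclear envelope in muscle, had 48.0, 51.3, 50.2 and 34.1 CPM in cultures 1 to 4, and Akap9, of the Golgi and centrosome, had 25.8, 25.8, 26.0 and 30.5 CPM. Culture 4 was thus the lowest for Akap6 and the highest for Akap9. Per kilobase Akap6 (2.51 ± 0.44 RPKM) and Akap10 (2.04 ± 0.14 RPKM) were not told apart, nor were Akap10 and Akap9 (1.88 ± 0.16 RPKM) or Akap5 (1.168 ± 0.05 RPKM) and Akap13 (1.12 ± 0.06 RPKM), with adjusted p values of 0.0661, 0.109 and 0.409 in edgeR's test. Akap5 is the anchor of neuronal synapses. Akap6 over Akap10 turned to log2 ratios of -0.60 and -0.89 with the mean and longest GENCODE lengths, and passed the threshold at 0.45 without culture 4 and at 1.05 without a length term. Akap10 over Akap9 turned to -0.30 without a length term, and passed the threshold at 0.14 without culture 4 and at 1.46 with the longest GENCODE transcripts. Akap5 over Akap13 turned to log2 ratios of -1.53, -1.51 and -0.62 without a length term and with the mean and longest GENCODE lengths.

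The 15 members below the minimum included genes best known from sperm, retina and gut. The receptor guanylyl cyclases Gucy2e and Gucy2f of the retina had 9 and 2 counts in all 4 libraries together, Gucy2c of the intestine 5, Gucy2g 5 and Gucy2d of olfactory neurons 0. Adcy10, the soluble cyclase that bicarbonate stimulates, had 6 counts, Adcy4 38, Pde4c 14 and the beta subunit Gucy1b2 13. Of the anchoring proteins, Akap14 had 58 counts, the sperm protein Akap3 19 and its partner Akap4 0. With Pde6a, Pde6b and Pde6c, 4 members were at 0 and 6 at or under the floor of 3 counts over all libraries, under which no level is given. At this depth 3 counts in 1 library were 0.0708 to 0.0804 CPM.

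The route into and out of these enzymes was described with 76 further genes, of which 49 were expressed. Beside this count and each list count that follows stands the 58.1% of all protein-coding genes that were expressed. All 7 listed alpha subunits of the Gs and Gi kinds were expressed, led by Gnas (1345 ± 65.2 CPM), Gnai2 (890.5 ± 34.0 CPM) and Gnao1 (583 ± 58.5 CPM). Of 20 Gs-coupled receptors 10 were expressed, the highest being the PACAP receptor Adcyap1r1 (65.1 ± 1.89 CPM), the beta-adrenergic receptor Adrb1 (23.3 ± 1.49 CPM) and the adenosine receptor Adora2a. Adora2a had 3.89, 6.77, 6.57 and 12.1 CPM in cultures 1 to 4, highest in culture 4. All 3 PKA inhibitor peptides were expressed, with Pkia at 178.5 ± 6.58 CPM, Pkig at 49.1 ± 3.10 CPM and Pkib at 2.02 ± 0.46 CPM.

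Downstream, all 11 listed CREB factors, coactivators and their kinases were expressed, led in CPM by Sik3 (101.1 ± 1.6), Creb1 (40.7 ± 1.97) and Ep300 (36.7 ± 2.77). Of 9 genes known to be induced by cyclic AMP 8 were expressed, with Per1 at 72.7 ± 7.51, Ppargc1a at 61.3 ± 1.21 and Fos at 39.6 ± 9.75 CPM, and Pck1 had no count. Only 3 of 13 genes for cyclic nucleotide-gated, HCN and POPDC proteins were expressed, Bves at 9.54 ± 2.48, Hcn2 at 9.002 ± 1.21 and Popdc3 at 1.42 ± 0.46 CPM. Both listed exporters of cyclic AMP were present, Abcc5 at 99.6 ± 5.14 and Abcc4 at 40.7 ± 0.70 CPM. On the side of cyclic GMP, 4 of 9 genes of nitric oxide and natriuretic input were expressed. The receptor guanylyl cyclase Npr2, whose symbol lies outside the rule, had 86.3 ± 6.08 CPM, the clearance receptor Npr3 3.27 ± 0.72 CPM and the peptide Nppc 2.94 ± 0.67 CPM. Npr1, another receptor guanylyl cyclase outside the rule, had 2.38 ± 0.18 CPM. None of the 3 nitric oxide synthases reached 1 CPM in every culture, with Nos1 at 0.98 ± 0.12 and Nos3 at 0.95 ± 0.22 CPM. The cGMP-dependent kinase Prkg1 had 18.4, 18.6, 16.7 and 9.28 CPM in cultures 1 to 4, lowest in culture 4, and Prkg2 was not expressed.

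**Figure D4:**
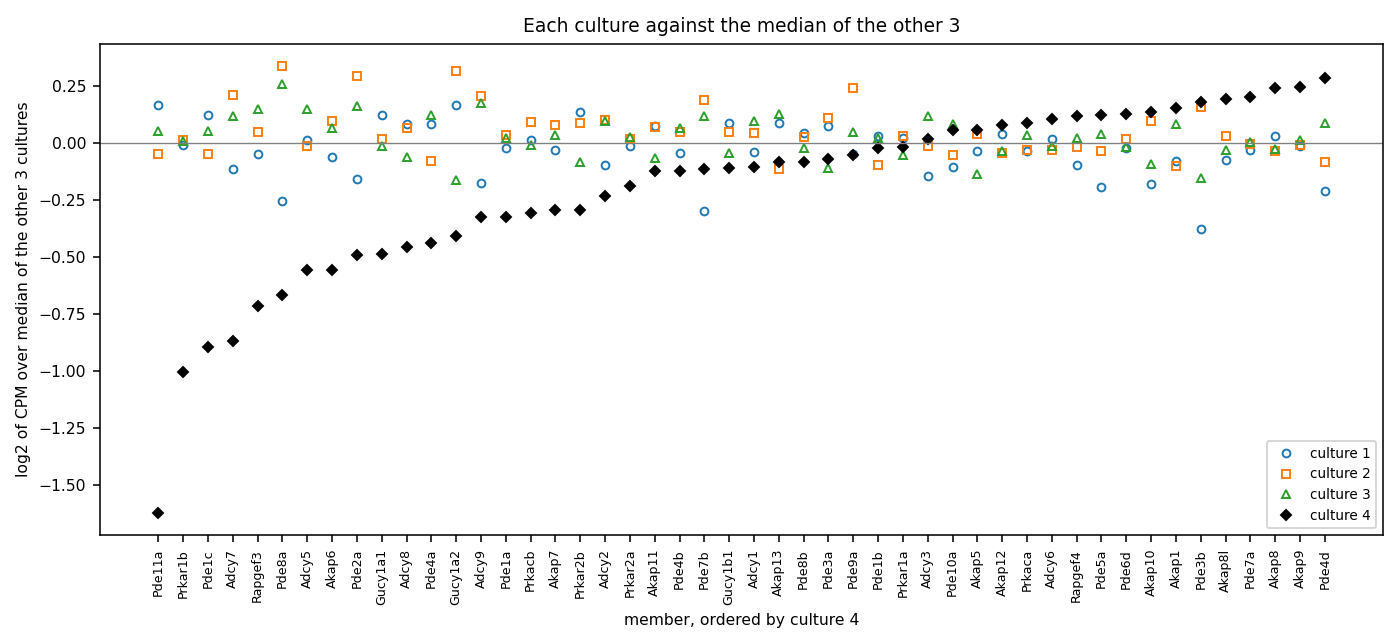
Log2 of the CPM of each expressed member in 1 culture over the median of the other 3, for each culture in turn, with members ordered by culture 4. Cultures 1 to 3 (open symbols) stay between -0.38 and 0.33, while culture 4 (filled diamonds) runs from -1.62 for Pde11a to 0.28 for Pde4d.

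The members differed between cultures mainly through culture 4. Of the 48 expressed members 10 had a highest CPM at least 1.5 times the lowest, or 20.8%, against 9.59% of expressed protein-coding genes. Culture 4 was the lowest in all 10 of these members. It was also the lowest in 785 of the 1218 expressed protein-coding genes past 1.5-fold, and the 785 are 6.18% of all expressed ones. The 10 members were Pde11a (3.33-fold), Prkar1b (2.01), Pde1c (1.95), Adcy7 (1.94), Rapgef3 (1.76), Pde8a (1.68), Adcy5 (1.62), Pde2a (1.54), Gucy1a1 (1.51) and Akap6 (1.502). They come from 7 classes of members. Over cultures 1 to 3 alone no member reached 1.5-fold, against 0.472% of expressed protein-coding genes. The median member differed less, with a highest over lowest CPM of 1.19, beside 1.16 for expressed protein-coding genes. Culture 4 was below all other cultures for 26 of the 48 members, or 54.2%, against 36.6% of expressed protein-coding genes, and above all for 15, or 31.2%, against 45.9%. A gap that set 1 culture apart from the other 3 by Dixon's test was found for 8 members, or 16.7%, against 15.6% of expressed protein-coding genes, always in culture 4. It was the lowest for 5 of the 8 and the highest for 3. Of the 1978 expressed protein-coding genes with such a gap, culture 4 was the lowest for 775 and the highest for 1034. These are 6.1% and 8.14% of all expressed protein-coding genes.

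Against the median of the other 3 cultures, the members in culture 4 had a median log2 of -0.11, and those in cultures 1, 2 and 3 had medians of -0.03, 0.03 and 0.02. The spread between libraries beyond counting error, which edgeR gives as a biological coefficient of variation (BCV), had a median of 0.0936 over the expressed members and 0.0818 over expressed protein-coding genes. Without culture 4 the median was 0.0275 over the expressed members and 0.0256 over expressed protein-coding genes. The steadiest members were Adcy6 (BCV 0.0599), Prkaca (0.0601), Pde6d (0.0614), Prkar1a (0.0616) and Akap12 (0.0617), and the most variable Pde11a (0.376), Prkar1b (0.245), Pde1c (0.233) and Adcy7 (0.231). The summed fibroblast or meningeal, microglial and endothelial markers were lower in culture 4 as well and the summed proliferation genes higher, as given above. Within the fibroblast or meningeal list Col1a1, Col1a2 and Col3a1 were lower in culture 4, and Dcn and Lum were below 1 CPM in every culture. Pdgfra, also a marker of the oligodendrocyte lineage, was at 20.5 CPM in culture 4, against 12.03 to 13.5 CPM in the others. Within the endothelial list Flt1 had 1.53 CPM in culture 4, against 6.06 to 6.58 CPM in the others. Kdr was also lower there, by a smaller margin, at 5.62 CPM. The other endothelial markers were below 1 CPM in every culture. The part of these cells in the members' levels was not tested. Gfap, an astrocyte marker, was itself lower in culture 4, at 779.7 CPM, against 1498 to 1555 CPM in cultures 1 to 3. The astrocyte list was divided. Aqp4, Gja1, S100b and Slc1a3 were also lower in culture 4, while Glul, Slc1a2, Aldoc, Aldh1l1 and Sox9 were higher there. Among the 10 members, Adcy7 overlaps Brd7 on the opposite strand, which had 109.8 CPM in culture 4 and 96.7 to 100.6 CPM in the others, and Pde8a overlaps the pseudogene Gm7180, which had 4.63 CPM in culture 4 and 5.33 to 6.07 CPM in the others.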

How the data were processed

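Per the labels' protocols, poly-A libraries of the 4 cultures were made with a stranded kit (500 ng of RNA, 14 PCR cycles). The authors deposited 1 table of estimated counts per gene, of which 31.7% of the values above 0 were not whole, together with combined exon lengths. The build GRCm38.p6 is named in the submitters' processing notes, with the tools STAR 2.7.2b, featureCounts 1.6.4 (Subread), cutadapt 1.17 and bcl2fastq 2.20.0.422. What each did, and whether counting used strand, was not given in the sources used here. All 63 members had the same coordinates in a RefSeq table of that build, and 33 of the 48 expressed members had whole counts in every library.

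CPM used raw library sums, and RPKM is CPM per kilobase of the deposited length. Since no molecular identifiers were used, PCR copies are not independent, and floors cover counting error alone. Members and gene lists were chosen with earlier results of these data known. Pairs of genes were tested with edgeR 4.0.16 (R 4.3.3; quasi-likelihood, two-sided, p-values adjusted by Benjamini-Hochberg at 0.05) on 8 counts a pair, rounded to whole numbers, with terms for library and gene and an offset of library size times length. Pairs were genes that share the letters before the first digit of the symbol, in groups of 2 to 30, and pairs within the members' classes. The SE of a log2 ratio is its size over the square root of the F statistic. BCV used TMM, an intercept-only design and the default filter on low counts. The scripts were tested on simulated data. Alternatives were other lengths (GENCODE vM21), filters, scalings, DESeq2 1.42.0, limma 3.58.1 (pseudocount of 0.5 counts), cultures 1 to 3 summed, and each culture left out. Values in every culture are given for the top 3 expressed members of a class, for members with at least 1.5-fold between highest and lowest CPM, and for those with a sample far from the others by Dixon's gap. Some others are given too. Genes of the other pathway lists are named by the top 3 in CPM, and a few others of these lists are named too.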

Additional observations from a re-analysis of the deposited data

Results flagged for a closer look

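For 8 of the 48 expressed members 1 culture lay far from the other 3, in that its gap to the nearest value divided by the whole range exceeded the critical value of Dixon's test for 4 samples. Chance flags about 1 in 20 groups, and 15.6% of expressed protein-coding genes were past the value, so the members' 16.7% is near the share of all such genes. The culture was culture 4 in all 8 cases. It was the lowest for 5 of the 8 members, and for 775 of the 1978 expressed protein-coding genes past the value (6.1% of all expressed ones). The gap was 0.985 of the range for the PKA subunit Prkar1b, 0.888 for Pde1a, 0.864 for Prkar2a, 0.846 for Pde11a and 0.835 for Pde1c. Culture 4 was the highest for 3 of the 8 members, and for 1034 of the 1978 genes (8.14% of all expressed ones). The gap was 0.953 for Akap9, 0.87 for Akap8 and 0.863 for Pde7a. For Prkar1b, culture 4 had 16.2 CPM and the other cultures 32.3 to 32.5 CPM, and for Akap9 culture 4 had 30.5 CPM and the others 25.8 to 26.0 CPM.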

How the results depend on the processing

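Of 47 alternatives to the main counts, 45 stayed within 1.5 times. The exceptions concern members whose highest CPM was at least 1.5 times the lowest, 10 in the main setting: 16 with no filter on low counts, and 0 to 9 with each culture left out, 0 being without culture 4. The members expressed stayed at 48 under every alternative but a TPM of at least 1, which gave 46. The pairs that differed ranged from 177 with cultures 1 to 3 summed to 195 without culture 4 where the 201 pairs were kept, and were 134 of 144 with both genes expressed and 193 of 216 with no minimum. The classes with a leading member ranged from 6 with the mean GENCODE length to 9. A log2 ratio counted as turned where its sign changed and it had passed the threshold before or passed it after, and all 17 such cases came from the exon length. Ratios near 0 that passed in neither setting also changed sign, among them Pde11a over Pde1c under DESeq2, limma, cultures 1 to 3 summed and without culture 1, 2 or 3, and Pde10a over Pde11a without culture 4. Without a length term they were -0.51 for Rapgef3 over Rapgef4, -0.20 for Pde9a over Pde5a, -0.73 for Pde11a over Pde1c, -1.28 for Pde3b over Pde3a, -0.30 for Akap10 over Akap9 and -1.53 for Akap5 over Akap13. With the mean GENCODE length they were -1.39 for Adcy1 over Adcy6, -0.44 for Pde7a over Pde8b, -0.38 for Pde3b over Pde3a, -1.51 for Akap5 over Akap13 and -0.60 for Akap6 over Akap10. With the longest GENCODE transcript they were -0.45 for Rapgef3 over Rapgef4, -0.23 for Adcy1 over Adcy6, -0.42 for Pde7a over Pde8b, -0.38 for Pde3b over Pde3a, -0.62 for Akap5 over Akap13 and -0.89 for Akap6 over Akap10. Pde3a led the dual-substrate enzymes without a length term. Among the top genes of the classes, the shares of Adcy1 (18.9%) and Gucy1b1 (36.7%) moved over 1.5 times with the mean length. Those of Pde1b (18.5%), Pde9a (46.5%) and Rapgef3 (41.3%) did so without length. Shares of other members also moved over 1.5 times, such as Pde3a (14.0% by the deposited length, 29.2% without length) and Gucy1a2 (9.39% and 26.6%). Group shares that moved over 1.5 times, beside those in the report, were the cGMP-specific enzymes (5.77% with the mean length, 5.19% without length) and the Pde4 family (40.1% with the mean length). The lead of Akap12, Prkar1a, Prkaca and Pde4b held under every alternative. TMM library sizes, an alternative chosen after seeing the data, again gave 10 members with at least 1.5-fold. Depth limits the 15 members below the minimum, with 0 to 58 counts in all.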
